A study of Mus musculus with 6 samples.

Results

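The genes described here are the translation initiation factors of mouse, the proteins that bring a ribosome to the start codon of an mRNA. They were chosen by name: every row of the deposited table whose Entrez identifier belongs to a protein-coding RefSeq gene with a symbol that begins with Eif and a digit from 1 to 6. This found 55 genes among the 24421 in the table, which fall into 11 groups by factor complex. A further RefSeq gene with such a name, Eif3j2, was not analysed here. RNA was sequenced from fully grown oocytes at the germinal vesicle (GV) stage, the arrested stage before meiotic maturation. The DKO group had the genotype Ring1 -/-; Rnf2 f/f; Zp3-cre and the SKO group had Ring1 -/-; Rnf2 f/f without the cre. Ring1 and Rnf2 encode the E3 ligases at the core of polycomb repressive complex PRC1, so both groups were Ring1 null by genotype and no group with intact Ring1 was compared. Zp3-cre is driven by an oocyte promoter that is active as oocytes grow, and only the DKO animals carried it, so an effect of the cre itself and loss of Rnf2 cannot be told apart. Each group had 3 libraries, each from 15 oocytes of 1 female of approximately 3 months on a mixed FVB, 129/Sv and C57BL/6J background, and the labels describe the libraries as earlier samples analysed again.

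Initiation begins when eIF2 carries the initiator tRNA to the small ribosomal subunit together with eIF1, eIF1A, eIF3 and eIF5. The eIF4 factors bind the cap of the mRNA and unwind its leader, and eIF5B joins the large subunit. Supply is controlled at the eIF2 step, where kinases and the exchange factor eIF2B set how much eIF2 is active, and at the cap, where eIF4E-binding proteins hold eIF4E away from eIF4G. Growing oocytes store many mRNAs untranslated and translate them at set times during maturation, and oocytes have a cap-binding protein of their own, Eif4e1b, beside the general eIF4E-binding protein Eif4enif1 (the transporter 4E-T).

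Library totals were 15521975 to 26652745 counts, so that 3 counts corresponded to 0.113 to 0.193 CPM, the count scaled to library size. CPM values of genes below use TMM, a scaling that sets library sizes from the bulk of genes. Rnf2 stood at 56.3, 30.7 and 22.9 CPM in DKO libraries 1 to 3 and at 203, 180 and 188 CPM in SKO libraries 1 to 3, and the groups did not overlap. Its log2 fold change was -2.38 with a standard error (SE) of 0.30 and an adjusted p of 0.000349 (edgeR's quasi-likelihood test, here and below, adjusted over every tested gene by the Benjamini-Hochberg method). Ring1 had 19 counts in all DKO libraries and 10 in all SKO libraries and was too low to test. Libraries correlated at 0.942 to 0.962 within DKO, 0.973 to 0.977 within SKO and 0.865 to 0.898 between the groups (Pearson, log2 CPM across genes, with no p). The summed level of 12 oocyte markers ran from 12039.7 to 16288 CPM in DKO and from 21090 to 22537 CPM in SKO, with 6 of the 12 called lower and 0 higher. Of 13 markers of granulosa and cumulus cells, 11 were tested and 5 were called higher (Fshr, Inhba, Nr5a2, Cyp11a1 and Has2) and 1 lower (Cyp19a1), and their sum was 219 to 255 CPM in DKO against 120 to 151 CPM in SKO. Within that list Fshr averaged 30.7 CPM in DKO and 0.506 in SKO, Cyp11a1 36.9 and 14.6, Foxl2 1.18 and 0.176, Amh 0.795 and 1.63, and Amhr2 0.124 and 0.115. Markers of theca, stroma and endothelium, 11 in number, summed to 70.1 to 82.7 CPM in DKO and 94.2 to 128 CPM in SKO. Of 7 tested, 3 were called higher (Col1a1, Dcn and Pdgfra) and 1 lower (Pecam1). Pecam1 made up most of the sum and averaged 61.0 CPM in DKO and 110 in SKO. Pdgfra averaged 4.99 and 0.766, Dcn 3.43 and 0.519, and Col1a1 1.35 and 0.0696. Blood markers summed to at most 6.04 CPM, with Hba-a1 and Hbb-bs at 0. The part of these markers in the results below was not tested, and in pooled oocytes fewer cells of a type and less RNA per cell cannot be told apart.

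Of the 55 initiation factors, 54 were counted in every library and 54 passed the filter on low counts. Eif2s3y, the Y-linked copy of eIF2 gamma, did not pass, with 1 count in SKO library 3 and 0 in the other libraries. Most factors moved little between the genotypes. Called means an adjusted p under 0.05, and 3 factors were called higher in DKO (Eif5a2, Eif4ebp1 and Eif1a) and 4 lower (Eif4b, Eif3k, Eif2b3 and Eif3g). These 7 are 13% of the 54 tested, against 24.7% called among all 14845 genes tested. By direction, 5.56% of the factors were called higher against 17.3% of all genes, and 7.41% lower against 7.41% of all genes. The count of factors called lower therefore stood at the level of the background. Among the rises, Eif5a2 passed the filter on low counts only through its DKO libraries.

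The factors' log2 fold changes (DKO minus SKO) had a median of -0.28, while the median of all genes tested was 0.04. Values were below 0 for 40 factors (74.1%) and above 0 for 14, while 47.6% of all genes were below 0. Of the 54 factors tested, 37 (68.5%) lay within 0.5 of 0, against 49.7% of all genes. A change of at least 1 on the log2 scale was fitted for 5 factors (9.26%), against 25.8% of all genes. All 3 DKO libraries lay below all 3 SKO libraries for 13 factors (24.1%), where 19.6% of all genes did so, and above them for 4 factors (7.41%), where 24.7% did so. Among genes that averaged at least 10 CPM, 45 factors had a median of -0.28 and all 8395 genes had -0.10. Values were below 0 there for 80% of the factors and 57.6% of the genes. In that range 5 factors (11.1%) were called, against 23.4% of the genes, and 12 factors lay wholly below SKO (26.7%), against 27.1%. With library totals in place of TMM the median over all genes moved from 0.04 to 0.20 and that of the factors to -0.10. The rises stayed called at that scaling, and none of the 4 falls did.

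**Figure D1:**
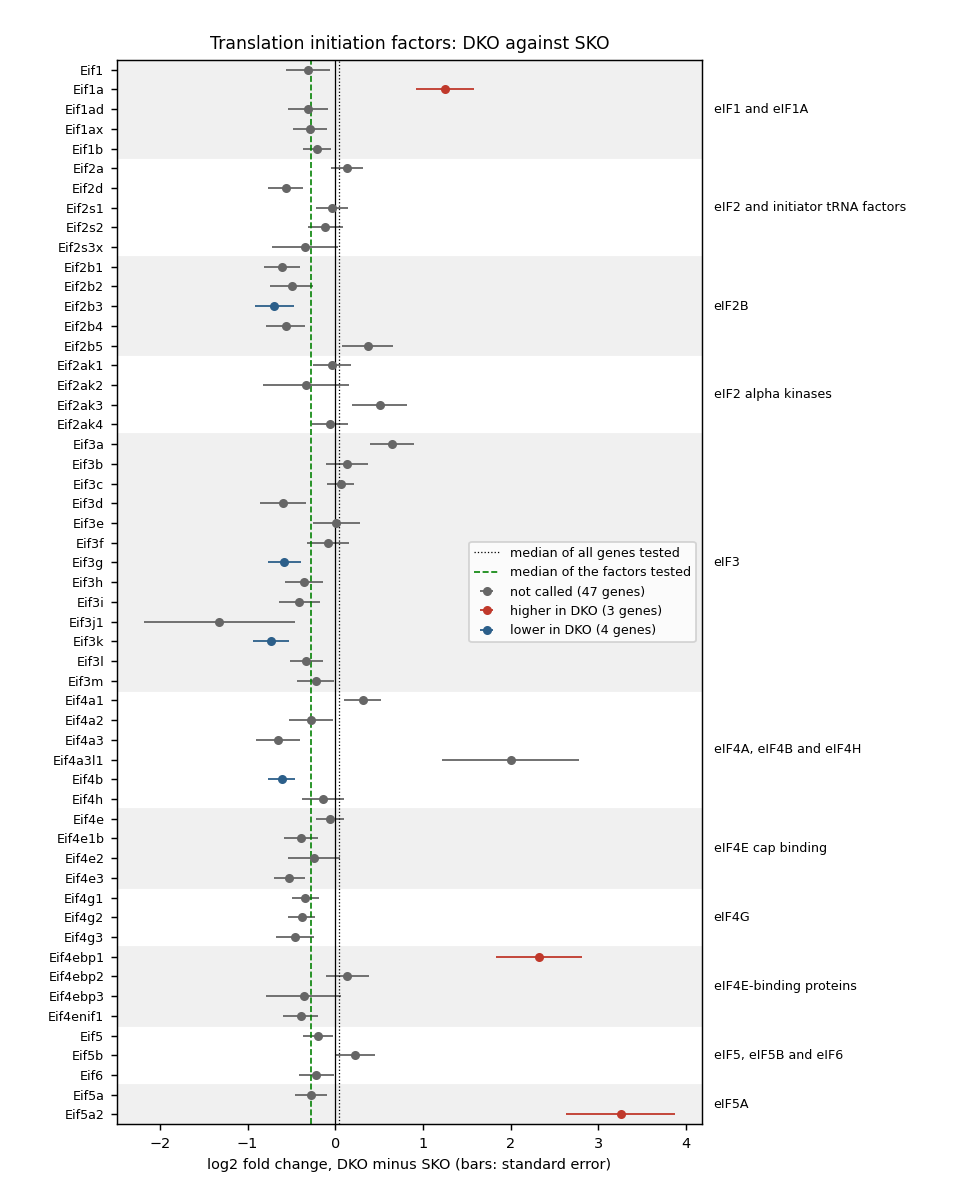
Each point is the log2 fold change (DKO minus SKO, x axis) of 1 of the 54 initiation factors tested, with its standard error as a bar, ordered by factor complex on the y axis. Red marks the 3 factors called higher and blue the 4 called lower; the dashed line is the factors' median (-0.28) and the dotted line that of all genes tested (0.04).

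As a share of all counts in a library, the 55 factors together took 0.804%, 0.787% and 0.851% in DKO libraries 1 to 3 and 0.878%, 0.870% and 0.878% in SKO libraries 1 to 3. The means were 0.814% ± 0.033 (SD, n = 3) and 0.875% ± 0.0046 (SD, n = 3). All DKO shares were below all SKO shares, as were the summed levels on the TMM scale (7108 to 8803 CPM against 9004 to 9534 CPM), which gives a two-sided exact permutation p of 0.1, the smallest that 3 against 3 libraries allow.

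The first group holds eIF1 and eIF1A, the small factors that open the ribosomal subunit for scanning and check the start codon. Its 5 genes divided between 4 with log2 fold changes from -0.31 to -0.21, none called, and 1 called rise. Eif1a, the autosomal gene for eIF1A (Entrez 13664, chromosome 18, 46597704 to 46610225, GRCm38.p6), stood at 22.6, 12 and 12.9 CPM in DKO libraries 1 to 3 and at 8.53, 5.76 and 5.55 CPM in SKO libraries 1 to 3. Every DKO library was above every SKO library, with DKO library 1 highest. It rose 2.38-fold, a log2 fold change of 1.25 (SE 0.34, adjusted p = 0.0217). The call was lost without DKO library 1 (adjusted p = 0.0724), without SKO library 2 (0.084) and without SKO library 3 (0.0852). Eif1ax, the X-linked gene for the same factor, had 92.0, 72.2 and 58.8 CPM in DKO and 91.2, 88.7 and 92.7 CPM in SKO, with a log2 fold change of -0.29 (SE 0.19, adjusted p = 0.306).

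Eif1a has many close copies in the mouse genome, and reads from them could be counted on either gene. A search of GENCODE M21 transcripts with the 435 bases of the Eif1a reading frame found 20 further genes, leaving Eif1ax aside, that matched over at least 50% of it. Of these, 8 were in the table, all on chromosome 12, at 93.8% to 95.2% identity to Eif1a, where Eif1ax had 85.7%. The 7 that were too low to test had 6 counts in all libraries together. The remaining copy, Gm5039, is annotated as a transcribed pseudogene (chromosome 12, 88320122 to 88321762) and had 68, 96 and 79 counts in DKO libraries 1 to 3 and 23, 1 and 8 in SKO libraries 1 to 3. Its log2 fold change was 3.10 (SE 0.75, adjusted p = 0.0133), and the adjusted p was 0.0501 without SKO library 3. Gm5039 passed the filter on low counts only through its DKO libraries. The labels do not say how reads shared between these copies were assigned, so the split between Eif1a and its copies is uncertain.

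Eif1ax was the main source of eIF1A transcripts in every library. Per kilobase of gene length, Eif1a made up 7.31%, 5.06% and 6.57% of Eif1a plus Eif1ax in DKO libraries 1 to 3 and 2.92%, 2.05% and 1.89% in SKO libraries 1 to 3. These shares did not overlap (exact permutation p = 0.1, two-sided, n = 3 per group, adjusted p = 0.367 over 22 paralog shares). Eif1b, a second gene for eIF1, was the most abundant of the group at 151 ± 14.3 CPM per kilobase in SKO and 131 ± 10.6 in DKO (SD, n = 3). The main Eif1 gene stood at 18.0 ± 0.828 CPM per kilobase in SKO and 14.5 ± 3.83 in DKO (SD, n = 3). Eif1ad, a related protein with an eIF1A domain, overlaps Banf1, had 22.5, 20.3 and 27.6 CPM in DKO and 33.0, 29.9 and 24.4 CPM in SKO, and was not called (log2 fold change -0.31, adjusted p = 0.344).

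The eIF2 trimer and the initiator tRNA factors Eif2a and Eif2d showed 0 calls among 5 genes tested by edgeR, with 1 at an unadjusted p under 0.05 and 1 called lower by DESeq2. Their median was -0.11, and 0.06 with library totals, so no direction can be given for the group. Eif2d, an alternative carrier of initiator tRNA, had 31.7, 46.6 and 44.6 CPM in DKO against 60.3, 58.7 and 62.8 CPM in SKO. All DKO libraries were below SKO, with a log2 fold change of -0.56 (SE 0.20, adjusted p = 0.0633). The alpha and beta subunits, Eif2s1 and Eif2s2, had log2 fold changes of -0.03 and -0.11 with overlapping groups. Transcripts of the gamma subunit came from the X-linked Eif2s3x. This gene had 4.84, 3.29 and 2.60 CPM in DKO and 4.55, 4.51 and 4.52 CPM in SKO (log2 fold change -0.34, adjusted p = 0.543). Eif2s3x was the least abundant tested gene of the group at 1.24 CPM per kilobase in SKO, where Eif2s2 was the most abundant at 22.0.

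eIF2B is the exchange factor that recycles eIF2 by loading it with GTP. Of its 5 subunit genes, 4 had values below 0, 1 was called lower and 0 higher, with a median log2 fold change of -0.56. The median stayed between -0.74 and -0.40 in the 15 alternative settings. Eif2b3, the gamma subunit (Entrez 108067, chromosome 4, 117019399 to 117086852), stood at 22.8, 33.5 and 21.9 CPM in DKO libraries 1 to 3 and at 45.1, 40.7 and 41.0 CPM in SKO libraries 1 to 3. It fell by 38.3% (log2 fold change -0.70, SE 0.22, adjusted p = 0.0444), and it was called in 8 of 15 alternative settings, not without DKO library 1, DKO library 3 or any 1 SKO library. The alpha subunit Eif2b1, the most abundant at 115 CPM per kilobase in SKO, had 107, 167 and 184 CPM in DKO and 240, 219 and 237 CPM in SKO. Its groups did not overlap either, and its adjusted p of 0.0579 (log2 fold change -0.60, SE 0.21) lay just outside the threshold. Eif2b4 had a log2 fold change of -0.56 (adjusted p = 0.0948) with all DKO libraries below SKO, and Eif2b2 had -0.50 (adjusted p = 0.166) with overlap. Eif2b5, which encodes the catalytic epsilon subunit, lay on the other side of 0, at 8.09, 11.7 and 11.9 CPM in DKO and 8.57, 9.35 and 6.62 CPM in SKO (log2 fold change 0.37, adjusted p = 0.397).

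The 4 eIF2 alpha kinases shut down initiation under stress, and 0 of 4 were called by edgeR, 0 at an unadjusted p under 0.05 and 0 by DESeq2. Eif2ak1 (HRI, the heme-regulated kinase) was the most abundant at 72.8 ± 8.92 CPM per kilobase in SKO and 70.9 ± 21.7 in DKO (SD, n = 3). In DKO it ran from 198 to 356 CPM and in SKO from 248 to 311 CPM, so the DKO range enclosed the SKO range. Eif2ak4 (GCN2, which senses uncharged tRNA) had a log2 fold change of -0.06 (adjusted p = 0.853). Eif2ak3 (PERK, the kinase of the endoplasmic reticulum) had 14.1, 9.25 and 7.92 CPM in DKO and 8.33, 7.19 and 6.45 CPM in SKO, with a log2 fold change of 0.51 (SE 0.31, adjusted p = 0.269). Eif2ak2 (PKR, which binds double-stranded RNA) was lowest at 0.618 CPM per kilobase in SKO and had a log2 fold change of -0.33 (SE 0.50, adjusted p = 0.663).

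eIF3 is the large scaffold that holds the small subunit to the mRNA, and its genes did not move as a block. Of 13 genes tested, 2 were called lower and 0 higher, 9 values were below 0, and the median was -0.33. Eif3k (Entrez 73830, chromosome 7, 28971372 to 28981890), a peripheral subunit, stood at 22.4, 26.5 and 20.6 CPM in DKO libraries 1 to 3 and at 39.9, 35.2 and 40.4 CPM in SKO libraries 1 to 3. It fell by 39.7% (log2 fold change -0.73, SE 0.20, adjusted p = 0.0249). Eif3g (Entrez 53356, chromosome 9, 20894349 to 20898590), the subunit with an RNA recognition motif, was the most abundant per length at 111 CPM per kilobase in SKO. It had 65.3, 97.9 and 73.1 CPM in DKO and 112, 122 and 120 CPM in SKO, and fell by 33.3% (log2 fold change -0.58, SE 0.19, adjusted p = 0.0458). In both genes every DKO library was below every SKO library. Eif3k was called in 11 of 15 alternative settings and not without any 1 SKO library. Eif3g was called in 6 of 15, and not without any 1 SKO library, DKO library 1 or DKO library 3. With GC and length offsets Eif3g was at -0.34 (adjusted p = 0.0899).

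Eif3a, the largest eIF3 subunit and a core of the complex, went against the median of its group. It stood at 298, 166 and 357 CPM in DKO libraries 1 to 3 and at 182, 183 and 158 CPM in SKO libraries 1 to 3. DKO libraries 1 and 3 were above all SKO libraries while DKO library 2 was within their range, and the log2 fold change of 0.65 (SE 0.25) had an adjusted p of 0.0851. It was called higher without DKO library 2 (0.91, adjusted p = 0.0076) and with library totals (0.80, adjusted p = 0.0339). It was 0.40 without DKO library 3 (adjusted p = 0.216) and 0.39 with GC and length offsets (adjusted p = 0.212). The eIF3 genes together took 0.0858% ± 0.005 of library counts in DKO and 0.0780% ± 0.0026 in SKO (SD, n = 3, exact permutation p = 0.1, two-sided). On the TMM scale their summed level was 810, 779 and 851 CPM in DKO libraries 1 to 3. It was 828, 824 and 821 CPM in SKO libraries 1 to 3, with overlap. The direction of the summed share therefore depended on the scaling. Eif3a weighed most in these sums, at 274 CPM on average in DKO and 174 CPM in SKO. Across the 13 genes, 9 log2 fold changes were below 0. Eif3d, a cap-binding subunit, had 23.6, 45 and 25.4 CPM in DKO against 44.9, 48.7 and 48.6 CPM in SKO and was not called (adjusted p = 0.123). Eif3b, Eif3c, Eif3e and Eif3f had log2 fold changes from -0.08 to 0.14 with overlapping groups. Eif3h had all DKO libraries below SKO (log2 fold change -0.36, adjusted p = 0.263), and Eif3i, Eif3l and Eif3m had values from -0.41 to -0.22 with overlap.

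Eif3j1, a loosely attached subunit, was the least abundant gene of the complex and its value rested on few counts. It had 50, 50 and 1 counts in DKO libraries 1 to 3 and 143, 70 and 96 in SKO libraries 1 to 3. The counts of DKO library 3 stood apart, and the log2 fold change of -1.32 had an SE of 0.87 and an adjusted p of 0.297. Without DKO library 3 it was -0.74 (adjusted p = 0.218). The ratio of summed counts, scaled by library size, was 0.359 (95% exact interval 0.284 to 0.450, which covers counting error only, since amplified reads are not independent molecules). Eif3j1 did not pass the filter on low counts through the DKO libraries, so it was tested only because of its SKO counts. It overlaps Spg11 in the annotation.

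eIF4A is the helicase that unwinds mRNA leaders, helped by eIF4B and eIF4H. In this group 1 of 6 genes was called lower and 0 higher, with a median of -0.21 that ran from -0.38 to 0.03 over the alternative settings. Eif4b (Entrez 75705, chromosome 15, 102073773 to 102097173) stood at 243, 302 and 252 CPM in DKO libraries 1 to 3 and at 405, 394 and 417 CPM in SKO libraries 1 to 3. The groups did not overlap, and DKO was 34.5% lower (log2 fold change -0.61, SE 0.16, adjusted p = 0.0169). It had the smallest adjusted p of the falls and was called in 11 of 15 alternative settings, not without any 1 SKO library. At 102 CPM per kilobase in SKO and 67.2 in DKO it was the most abundant gene of this group. Eif4h had 135, 162 and 77.8 CPM in DKO and 130, 140 and 143 CPM in SKO (log2 fold change -0.14, adjusted p = 0.717).

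Of the helicase genes, Eif4a1 had 103, 60.8 and 76.1 CPM in DKO and 65.0, 60.02 and 67.3 CPM in SKO (log2 fold change 0.32, adjusted p = 0.305). Eif4a2 had 68.8, 63.4 and 34.3 CPM in DKO and 64.6, 65.0 and 72.5 CPM in SKO (log2 fold change -0.28, adjusted p = 0.452). Neither gene was called in any alternative setting, and the share of Eif4a1 per kilobase in the pair overlapped between the groups. Eif4a3, which marks exon junctions after splicing rather than driving initiation, had 24.9, 50.7 and 35.5 CPM in DKO against 58.9, 60.2 and 55.2 CPM in SKO. All DKO libraries were lower, with a log2 fold change of -0.65 (SE 0.25, adjusted p = 0.0858). Its intronless copy Eif4a3l1 had 31, 9 and 23 counts in DKO libraries 1 to 3 and 7, 2 and 9 in SKO libraries 1 to 3, a scaled ratio of 3.84 (95% exact interval 2.25 to 6.89, counting error only). The fitted log2 fold change was 2.0 (SE 0.78, adjusted p = 0.0891). Eif4a3l1 passed the filter on low counts only through the DKO libraries, and reads shared with Eif4a3 could be counted on either gene.

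The cap-binding eIF4E genes had the highest median level per length in SKO of the 11 groups, 166 CPM per kilobase. Eif4e1b, the oocyte form of eIF4E, reached 592 ± 54.0 CPM per kilobase in SKO and 452 ± 107 in DKO (SD, n = 3). It was followed by Eif4e3 at 308 ± 32.6 in SKO and 214 ± 37.4 in DKO, and both were far above the general gene Eif4e at 24.9 ± 1.32 in SKO and 23.9 ± 1.89 in DKO. Eif4e2, a cap binder that represses, was lowest at 2.92 ± 0.764 in SKO and 2.47 ± 0.562 in DKO. By edgeR 0 of these 4 genes were called, with 1 at an unadjusted p under 0.05 and 1 called lower by DESeq2. Their median was -0.32. Eif4e3 had 461, 512 and 643 CPM in DKO libraries 1 to 3 and 691, 777 and 855 CPM in SKO libraries 1 to 3. The groups did not overlap, and its log2 fold change of -0.52 (SE 0.18) was the closest to the threshold from outside, at an adjusted p of 0.0525. Eif4e1b had 775, 1029 and 1257 CPM in DKO and 1197, 1378 and 1429 CPM in SKO, so DKO library 3 lay within the SKO range. Its log2 fold change was -0.39 (SE 0.19, adjusted p = 0.171), and it was called lower in 1 of 15 alternative settings, without DKO library 3. Eif4e had a log2 fold change of -0.06 (SE 0.16, adjusted p = 0.812) and Eif4e2 of -0.24 (SE 0.29, adjusted p = 0.585).

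Eif4e1b supplied most of the eIF4E transcripts, per kilobase, in every library. It took 62.0%, 66.7% and 66.3% of the summed counts per kilobase of the 4 eIF4E genes in DKO libraries 1 to 3 and 63.7%, 64.4% and 63.2% in SKO libraries 1 to 3, with overlap. Eif4e took 4.39%, 3.19% and 3.04% in DKO and 2.82%, 2.64% and 2.61% in SKO, without overlap (exact permutation p = 0.1, two-sided, n = 3 per group, adjusted p = 0.367). The group's share of all library counts was 0.177% ± 0.0208 in DKO and 0.213% ± 0.0135 in SKO (SD, n = 3, exact permutation p = 0.1, two-sided). On the TMM scale the summed levels overlapped, at 1377, 1664 and 2042 CPM in DKO and 2027, 2301 and 2428 CPM in SKO.

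**Figure D2:**
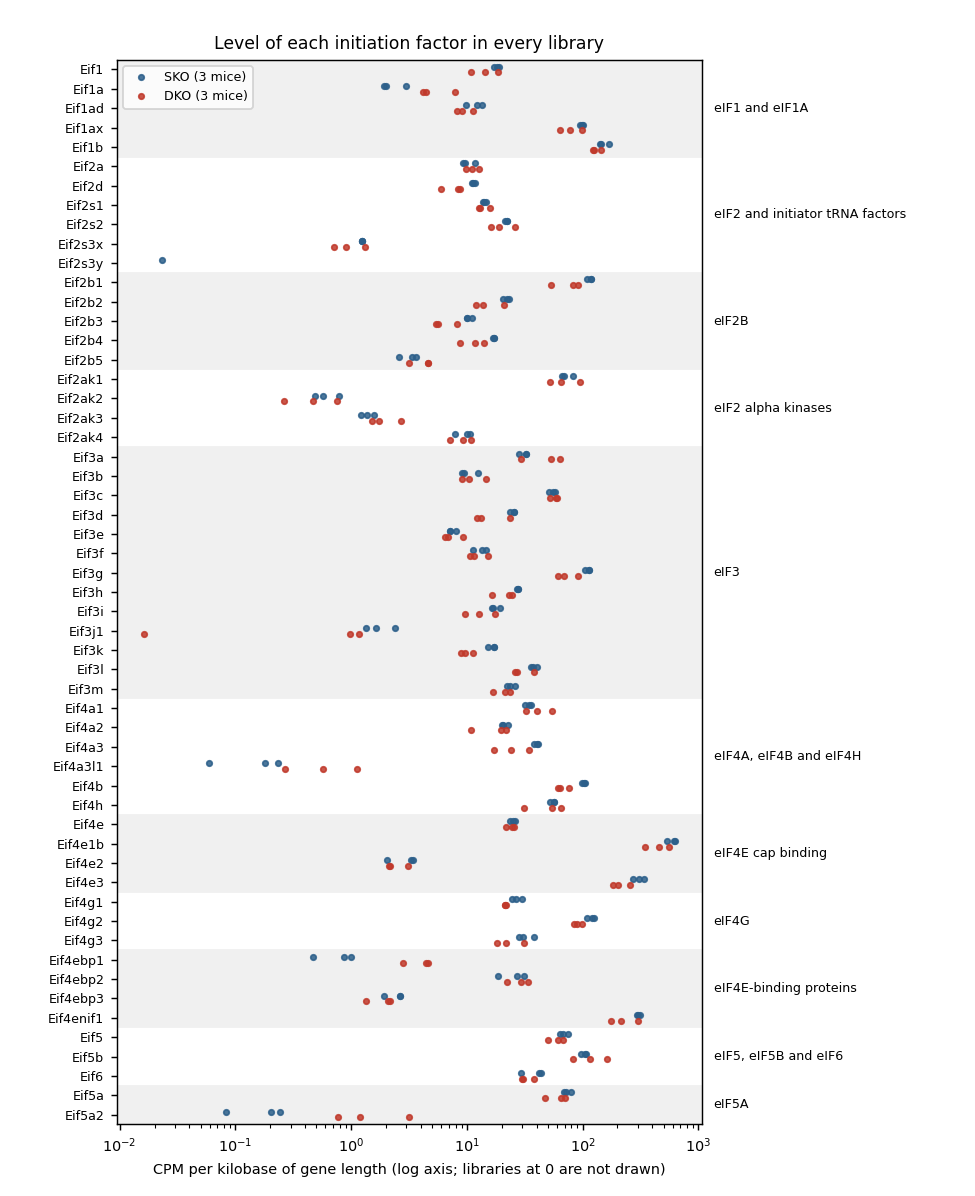
Each point is 1 library's level of a factor, in CPM per kilobase of gene length on a log axis (x), for the 55 factors by complex (y), with SKO in blue and DKO in red; libraries at 0 are not drawn. Eif4e1b, Eif4e3 and Eif4enif1 lie furthest to the right in both genotypes, Eif4a3l1 and Eif5a2 far to the left in SKO, and DKO library 3 sits apart for Eif3j1.

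eIF4G bridges eIF4E to eIF4A and eIF3, and all 3 of its genes had negative values. By edgeR 0 of 3 were called, with 1 at an unadjusted p under 0.05 and 0 called by DESeq2. Eif4g1 had 117, 117 and 119 CPM in DKO against 165, 147 and 136 CPM in SKO (log2 fold change -0.34, SE 0.16, adjusted p = 0.138). Eif4g2, a form that does not bind eIF4E and the most abundant at 118 CPM per kilobase in SKO, had 774, 690 and 648 CPM in DKO against 976, 850 and 929 CPM in SKO (log2 fold change -0.38, SE 0.15, adjusted p = 0.092). In both genes all DKO libraries were below all SKO libraries. Eif4g3, whose DKO library 3 lay within the SKO range, had 186, 219 and 315 CPM in DKO and 289, 389 and 309 CPM in SKO (log2 fold change -0.46, SE 0.22, adjusted p = 0.154). With GC and length offsets Eif4g2 and Eif4g3 were called lower. The share of each eIF4G gene within the trio overlapped between the genotypes.

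The eIF4E-binding proteins hold eIF4E away from eIF4G until they are phosphorylated. Of 4 genes, 1 was called higher and 0 lower. Eif4ebp1 (Entrez 13685, chromosome 8, 27260327 to 27275656), the gene for 4E-BP1, stood at 2.73, 4.51 and 4.35 CPM in DKO libraries 1 to 3 and at 0.845, 0.461 and 0.986 CPM in SKO libraries 1 to 3. All DKO libraries were above all SKO libraries, and the rise was 5.02-fold (log2 fold change 2.33, SE 0.49, adjusted p = 0.0068). It was called in all 14 alternative settings that tested it, with adjusted p-values up to 0.0331, and a stricter filter on low counts removed it. Its level was low in both genotypes, at 3.94 ± 1.0 CPM per kilobase in DKO and 0.779 ± 0.277 in SKO (SD, n = 3). Eif4ebp2, the main 4E-BP gene here at 25.7 ± 6.47 CPM per kilobase in SKO and 28.3 ± 5.71 in DKO, had a log2 fold change of 0.14 (SE 0.24, adjusted p = 0.711). Eif4ebp3 had 2.51, 2.40 and 1.55 CPM in DKO and 3.02, 2.21 and 3.04 CPM in SKO (log2 fold change -0.36, adjusted p = 0.578). Within the 3 genes per kilobase, Eif4ebp1 took 10.3%, 12.8% and 11.3% in DKO libraries 1 to 3 and 2.47%, 1.60% and 4.50% in SKO libraries 1 to 3, without overlap (exact permutation p = 0.1, two-sided, n = 3 per group, adjusted p = 0.367).

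Eif4enif1, which carries eIF4E to the nucleus and to stores of masked mRNA, was among the 3 most abundant factors per length in both genotypes, with Eif4e1b and Eif4e3, at 303 ± 10.3 CPM per kilobase in SKO and 231 ± 65.6 in DKO (SD, n = 3). It had 782, 953 and 1352 CPM in DKO libraries 1 to 3 and 1313, 1340 and 1402 CPM in SKO libraries 1 to 3. DKO libraries 1 and 2 were below all SKO libraries and DKO library 3 was within their range. The log2 fold change was -0.39 (SE 0.20, adjusted p = 0.184), and it was called lower in 2 of 15 alternative settings, among them without DKO library 3. In Eif4e1b too, DKO library 1 was the lowest and DKO library 3 the highest of the DKO libraries.

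**Figure D3:**
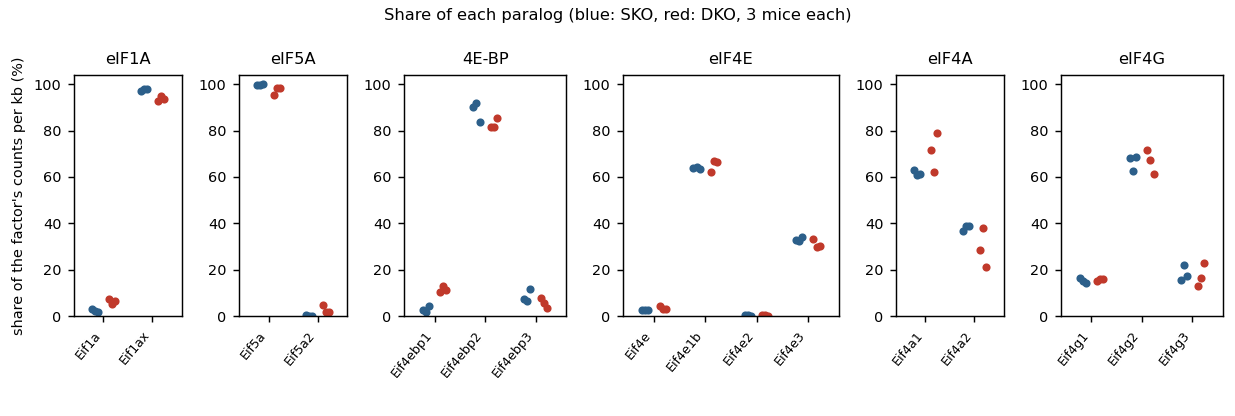
Each point is 1 library's share (%, y axis) of a factor's summed counts per kilobase that came from the named paralog (x axis), with SKO in blue and DKO in red, 3 mice each. The shares of Eif1a, Eif5a2, Eif4ebp1 and Eif4e are small and higher in all DKO libraries, while those of Eif4e1b, Eif4a1 and the eIF4G genes overlap.

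eIF5 triggers GTP hydrolysis by eIF2, eIF5B joins the subunits and eIF6 keeps the large subunit free, and 0 of these 3 genes were called by edgeR, 0 at an unadjusted p under 0.05 and 0 by DESeq2. Eif5b, the most abundant at 103 ± 4.87 CPM per kilobase in SKO and 121 ± 40.2 in DKO (SD, n = 3), had 901, 650 and 1272 CPM in DKO and 819, 761 and 832 CPM in SKO. Its DKO libraries lay on both sides of SKO (log2 fold change 0.23, SE 0.22, adjusted p = 0.499). Eif5 had a log2 fold change of -0.20 (adjusted p = 0.431) and Eif6 of -0.22 (adjusted p = 0.469).

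eIF5A, the factor that carries the modified lysine hypusine, helps ribosomes through difficult stretches and in termination. Eif5a2 (Entrez 208691, chromosome 3, 28781032 to 28798846), its second gene, had the largest fold change of the 54 factors tested. It stood at 15.7, 5.92 and 3.81 CPM in DKO libraries 1 to 3 and at 1.21, 1.01 and 0.411 CPM in SKO libraries 1 to 3. The groups did not overlap, and DKO library 1 was far above the other DKO libraries. The rise was 9.57-fold (log2 fold change 3.26, SE 0.62, adjusted p = 0.0040). Without DKO library 1 the log2 fold change was 2.46. It was called in all 15 alternative settings, with adjusted p-values up to 0.0179. Eif5a2 did not pass the filter on low counts through the SKO libraries, so it was tested only because of its DKO counts. The widely expressed gene Eif5a had 130, 141 and 95.4 CPM in DKO and 139, 159 and 144 CPM in SKO (log2 fold change -0.27, adjusted p = 0.309). Per kilobase Eif5a2 took 4.63%, 1.67% and 1.59% of the pair in DKO libraries 1 to 3 and 0.349%, 0.256% and 0.115% in SKO libraries 1 to 3, and the rest came from Eif5a.

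**Figure D4:**
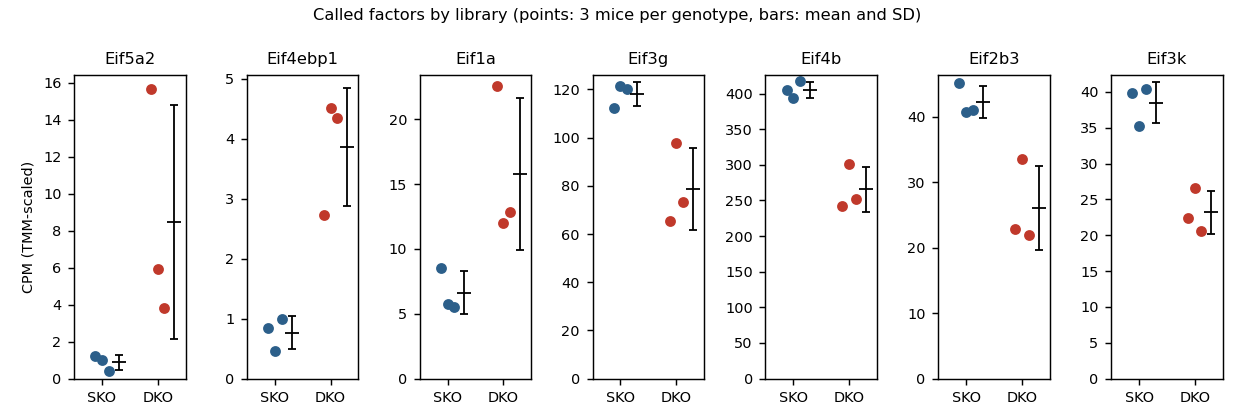
Levels of the 7 called factors in CPM (y axis, from 0, own scale per panel) in the 3 SKO (blue) and 3 DKO (red) libraries, with mean and SD as bars. No panel shows overlap; DKO library 1 of Eif5a2 (15.7 CPM) and of Eif1a (22.6 CPM) stands above the other DKO libraries.

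The 3 rises were in genes with low counts in SKO, between 0.764 (Eif4ebp1) and 6.61 CPM (Eif1a) on average. Eif5a2 was tested only because of its DKO counts, so its low level in SKO cannot be read as a result. The 4 falls were in genes between 38.5 and 405 CPM. None of the 7 overlaps another tested gene in the annotation, whereas 12 of the 55 factors do. Leaving out any 1 SKO library left 0 falls called by edgeR, with 6 or 7 factors below 0 at an unadjusted p under 0.05, while DESeq2 on all libraries called 8 falls. With library totals in place of TMM 0 falls were called and 6 factors below 0 had an unadjusted p under 0.05. The 7 log2 fold changes kept their sign in all alternative settings that tested them.

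**Figure D5:**
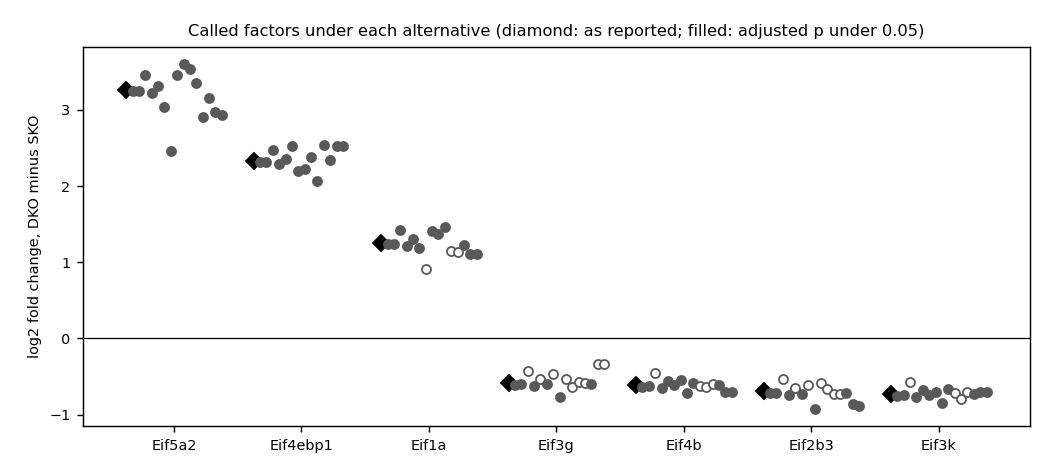
Log2 fold changes (DKO minus SKO, y axis) of the 7 called factors (x axis) as reported (diamonds) and under each alternative setting that tested them (circles, filled where the adjusted p was under 0.05). Eif5a2 and Eif4ebp1 are filled throughout, Eif1a has 3 open circles, and the falls have between 4 and 9.

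Genes that work beside the initiation factors were taken from 6 lists with 99 distinct genes, of which 95 were tested, 8 called higher (8.42%, against 17.3% of all genes) and 12 lower (12.6%, against 7.41%), with a median log2 fold change of -0.13, against 0.04 for all genes. The list of elongation, termination and recycling had 0 genes called higher and 1 lower of 14 tested, Eef2, the translocase (log2 fold change -0.64, adjusted p = 0.0397). The hypusine and polyamine list, which holds the enzymes that modify eIF5A, had 1 called higher and 0 lower of 10 tested, Sms, a spermine synthase (log2 fold change 0.94, adjusted p = 0.0223). The scanning list had 1 called higher and 0 lower of 11 tested, Bzw2, an eIF5 mimic (log2 fold change 1.20, adjusted p = 0.0478). These 3 calls held in 8 (Eef2), 11 (Sms) and 7 (Bzw2) of 15 alternative settings, and none of them without DKO library 1 or without any 1 SKO library.

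Of all genes tested, 17.3% were called higher and 7.41% lower. Among poly(A), cap and masking partners 2 of 27 were called higher and 5 lower. The rises were Pabpc1 (log2 fold change 1.15, adjusted p = 0.0138) and Cpeb2 (0.99, adjusted p = 0.0437). The falls with the smallest p were Paip2b, an inhibitor of poly(A)-binding protein (log2 fold change -0.78, adjusted p = 0.0059), Ybx2, which masks stored mRNA (-0.95, adjusted p = 0.0078), and Lsm14a, of the repressor granules (-0.64, adjusted p = 0.0135). Paip2b and Ybx2 were called in all 15 alternative settings and Lsm14a in 13, not without SKO library 2 or SKO library 3. Pabpc1 was called in 14 and Cpeb2 in 9. In the list of mTOR and MNK signalling, which controls the eIF4E-binding proteins and eIF4E, 2 of 18 were called higher and 4 lower, with a median of -0.29. Mtor, the kinase itself, had 61.3, 83.2 and 102 CPM in DKO and 166, 203 and 166 CPM in SKO (log2 fold change -1.12, adjusted p = 0.0035). Mknk1, a kinase of eIF4E, fell (log2 fold change -0.88, adjusted p = 0.0047), and so did Tsc1, a brake on mTOR (-0.86, adjusted p = 0.0048). The rises were Sesn1 (log2 fold change 2.03, adjusted p = 0.0049) and Sesn2 (1.23, adjusted p = 0.0257). Mtor, Mknk1, Tsc1 and Sesn1 were called in all 15 alternative settings and Sesn2 in 11.

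The integrated stress response, the programme downstream of the eIF2 alpha kinases, had 3 of 16 called higher and 2 lower. The shares over all genes tested were 17.3% higher and 7.41% lower. Psat1, a serine synthesis enzyme, had 580 counts in DKO and 2 in SKO, a scaled ratio of 318 (95% exact interval 87.7 to 2634, counting error only). Psat1 passed the filter on low counts only through its DKO libraries. Asns, the asparagine synthetase, rose (log2 fold change 2.87, adjusted p = 0.00031). Atf4, the transcription factor of this programme, had 160, 219 and 161 CPM in DKO against 345, 350 and 376 CPM in SKO, and fell (log2 fold change -0.99, adjusted p = 0.0026). The members of this list that were called therefore did not share a direction.

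Sequences just before the transcription starts were looked at because PRC1 is known to occupy promoters rich in the dinucleotide CG. RefSeq (GRCm38.p6) gave 57 windows of 250 bases for 44 of the 55 factors. They held a median of 19 CG, where all 32851 windows had a median of 6. Of the 57 windows 27 reached 20 CG, against 17.9% of all windows. Only 4 of the 7 called factors had a window, and Eif1a, Eif4ebp1 and Eif2b3 had none. Some factors have several overlapping windows, so the 57 are not independent. The fewest were 2 before Eif4a3l1 and the most 43 for Eif4enif1, in a window that lies within the annotated gene. The windows before Eif4b and Eif3g, factors that fell, are shown because they lie wholly outside the annotated gene. The first is chr15:102073523-102073772 on the plus strand and the second chr9:20898591-20898840 on the minus strand, and capitals mark each CG.
Eif4b: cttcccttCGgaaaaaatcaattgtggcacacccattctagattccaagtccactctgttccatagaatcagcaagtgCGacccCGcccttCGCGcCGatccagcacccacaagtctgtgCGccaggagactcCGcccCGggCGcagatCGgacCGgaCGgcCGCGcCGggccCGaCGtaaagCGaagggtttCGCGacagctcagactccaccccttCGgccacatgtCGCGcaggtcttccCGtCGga
Eif3g: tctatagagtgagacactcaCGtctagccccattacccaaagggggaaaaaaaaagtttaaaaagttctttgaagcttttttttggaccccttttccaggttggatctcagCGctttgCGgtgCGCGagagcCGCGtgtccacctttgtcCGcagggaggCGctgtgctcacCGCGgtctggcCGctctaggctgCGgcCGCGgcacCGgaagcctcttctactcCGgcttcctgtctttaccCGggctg
Eif4b had 26 CG in this window, a number that 9.59% of all windows reach, and Eif3g and Eif3k had 18 each, which 21.7% reach. Eif5a2, which rose, had 27, which 8.56% reach, and its window overlaps the annotated gene. The letters describe the reference sequence and do not show whether PRC1 was bound there.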

How the data were processed

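Counts per gene were deposited by the authors as 1 table with Entrez identifiers and gene lengths. The submitters' processing notes name the aligner STAR, version 2.5.0a, with GRCm38 (mm10). How reads were counted, and how strand and reads with several matches were handled, is not stated in the labels. Per the labels' protocols RNA was amplified before library preparation. Symbols, types and positions came from RefSeq GRCm38.p6, which matched 24387 of 24421 identifiers. No other sample columns were present.

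Genotypes were compared with edgeR 4.0.16 (R 4.3.3): filterByExpr with a minimum count of 10 and a minimum total of 15, TMM, the quasi-likelihood test with genotype as the only term, and Benjamini-Hochberg adjustment over 14845 genes, two-sided. SEs were taken from the fold change and its F statistic. Shares were tested by exact permutation over 6 libraries. Each mouse gave 1 library, and the labels give no batch. The fit was tested on simulated data, where the recovery required of falls was lowered after a first run. Small changes were often missed there, so a factor that is not called may still differ. Sums on the TMM scale were an added alternative, chosen after seeing the data. The 15 alternatives were DESeq2 1.42.0, RLE size factors, library totals, no filter, a stricter filter (50 counts in 3 libraries), limma 3.58.1 voom with genotype weights, each library left out, the replicate block, and GC and length offsets (loess span 0.5) with and without the block. Eif1a copies were found with BLAST 2.17.0.

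Factors, lists and tests were chosen with earlier results of these data known. Named are Rnf2 and Ring1, every called factor, the paralog families and eIF2 alpha kinases, each complex's largest change and most abundant gene, factors nearest the threshold, and up to 3 called genes per list with the smallest adjusted p. Other factors, the called rises of the cap and mTOR lists and the search for Eif1a copies were chosen after values were seen. So were the 10 CPM split, the 20 CG mark and the use of bases before the start.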

Additional observations from a re-analysis of the deposited data

How the results depend on the processing

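Most results kept their direction and side of the threshold: of 808 refits of single factors 703 did, 39 changed sign while not called, 39 passed the threshold newly, 27 no longer passed it, and none that was called reversed. The factors called higher numbered 3 and ranged from 2 to 4 in all 15 settings. The factors called lower numbered 4, and were 8 with DESeq2, 8 with voom, 8 with GC and length offsets, 2 with the stricter filter, 0 with library totals and 0 to 9 with 1 library left out (2, 9 and 8 without DKO libraries 1, 2 and 3, and 0 without any 1 SKO library). Over all genes 1100 were called lower, 596 with library totals, 1921 with GC and length offsets and 434 to 1501 with 1 library left out, and 2567 higher, 1952 to 2704 with 1 left out. Rises were 70% of all calls, 83% with library totals and 56.6% with GC and length offsets. The partner lists had 8 genes called higher, 3 to 14 with 1 library left out, and 12 lower, 20 with GC and length offsets and 7 to 15 with 1 left out. The factors' summed share is taken within each library, so scaling and filters do not change it. All DKO shares were below all SKO shares, so leaving out a library could not change the sign of the difference. Why the counts moved was not tested.

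Same-numbered libraries deviated together at correlations of 0.139, 0.077 and 0.048, and every library correlated best with its own number, but not all pairs passed 0.1 and the labels do not say that the numbers pair the mice. With the replicate block 7 factors were called lower, and with the block plus GC and length offsets 11 factors, 2127 of all genes and 21 list genes were. The share of Eif3j1 with Eif3j2 was not run. Depth limits Eif2s3y, Eif4a3l1 and most Eif1a copies, which lie near 3 counts in some libraries.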
